A study of Rattus norvegicus with 4 samples.

Results

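The array described here compared the gracilis, a strap-like muscle of the inner thigh, after 4 h of ischemia and 7 days of reperfusion with the gracilis of a sham-operated control. It was chosen by its label and is 1 of the 4 arrays of the series, which cover 1, 3, 7 and 14 days of reperfusion. Both muscles came from male Sprague-Dawley rats, and every array of the series shares the 4 h of ischemia in its injured channel and a sham operation in its other channel. RNA of the injured muscle carried the red dye Cy5 and RNA of the sham muscle the green dye Cy3 on the same 2-colour Agilent rat array. All 41012 probes for genes were taken, and they gave 23468 genes measured in at least 1 channel, 12005 of them with a current gene symbol. The labels give neither the age of the rats nor whether RNA was pooled, nor whether 1 sham RNA served more than 1 array, and they name 1 injured and 1 control replicate.

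When blood returns to ischemic skeletal muscle, damaged fibres are cleared by phagocytes and rebuilt from satellite cells, the resident muscle stem cells. Young fibres pass through an embryonic programme, with embryonic myosin and the fetal form of the acetylcholine receptor, before they take on adult fast or slow proteins. Clearance and repair are accompanied by complement, by interferon-induced genes in immune and resident cells, and by collagen laid down by fibroblasts.

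Ratios below are on the log2 scale, injured over sham, so a value of 1 stands for 2-fold higher and -1 for 2-fold lower. Levels are the normalized log2 brightness of a single channel, and they are compared only between the channels of 1 probe. A ratio whose sham spot was not well above background (a dim spot) is a minimum, as is one whose injured spot was saturated. Where such a gene is called within 2-fold below, this holds for the measured value only, and the difference may be larger. With 1 array there is no replicate and no test, precision is limited by that number, and higher or lower means a difference of 2-fold or more, a threshold of size alone. Among 40 probes printed 10 times on the array the log2 ratio had a median SD of 0.0723 over spots, a measure of noise within the array that says nothing of the spread between animals. The dyes were not swapped, so for any 1 probe a dye effect and a difference between the muscles cannot be told apart. Less RNA per cell and fewer cells of a type cannot be told apart either, because whole muscle was extracted.

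Of the 23468 genes 734 (3.13%) were higher and 289 (1.23%) lower in injured muscle, and 171 and 39 passed 4-fold. Among the 12005 genes with a symbol 468 (3.9%) were higher and 180 (1.5%) lower, with a median log2 ratio of 0.03, and these shares are the background for the gene lists below. The injured channel had 65.96% of its probes well above background and the sham channel 34.72%. Fibre genes were well above background in both channels, the skeletal actin Acta1 at a level of 13.87 in injured and 14.37 in sham muscle, as the label of the tissue has it. The highest genes with a symbol were embryonic myosin, the interferon-induced chemokine Cxcl10, the desaturase Scd and the growth factor Igf2, and the 2 lowest were the slow fibre myosins Myl3 and Myh7, followed by Tuba8 and Ppp1r1a, which belong to no slow fibre list. Where a gene named below as lower was within 2-fold under median centring, in which each array is shifted to a median of 0 and the loess step is left out, that value is given too.

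**Figure D1:**
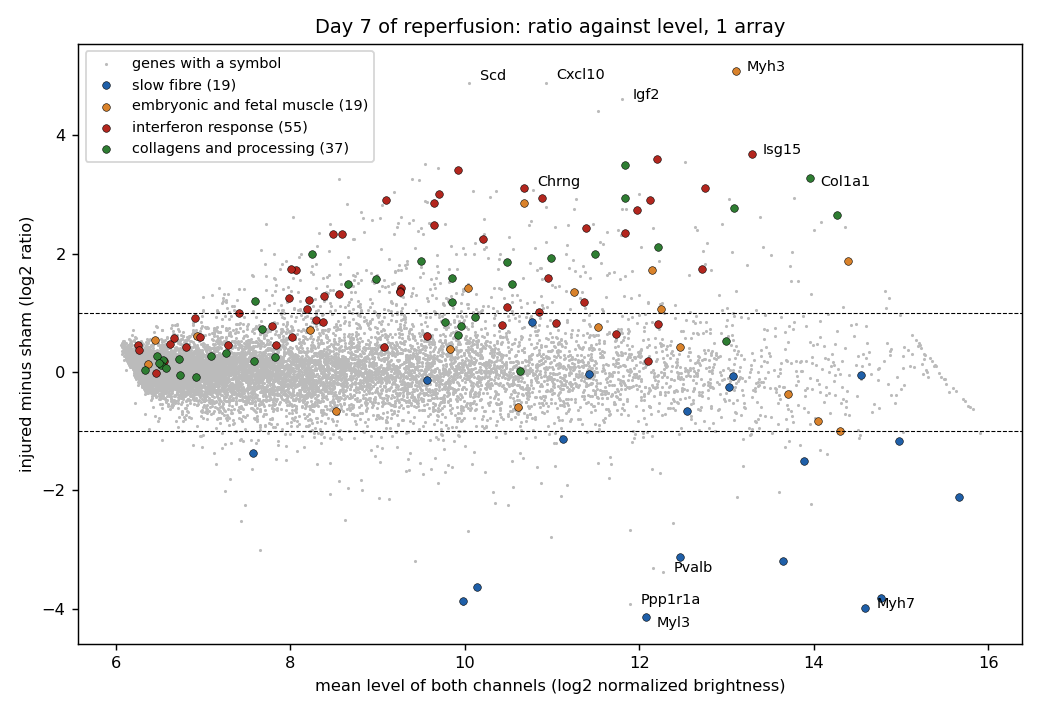
Log2 ratio of injured to sham muscle on day 7 (vertical) against the mean level of both channels (horizontal, log2 brightness) for the 12005 genes with a symbol, with 4 gene lists coloured and dashed lines at 2-fold. Slow fibre genes reach -4.13 and embryonic myosin Myh3 lies at 5.08, while most genes lie between the dashed lines.

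The sham channel of day 7 stood apart from the other 3. Over all 23468 genes it was at least 2-fold lower than the sham channels of days 1, 3 and 14 in 917, 648 and 645 genes and at least 2-fold higher in 35, 22 and 30, whereas any other pair of sham channels differed 2-fold in 108 to 228 genes. Of the genes with a symbol 180 were at least 2-fold lower in the day 7 sham than in each of the other sham channels, and 3 were higher. In 163 of these 180 genes the injured channel of day 7 was also lower than the injured channel of each other array, and in 102 at least 2-fold lower. Their ratio within the day 7 array had a median of 0.01, and 172 of the 180 were within 2-fold. An example, chosen after its values were seen, is the ribosomal protein gene Rps24, with a level of 11.58 in injured and 11.80 in sham muscle on day 7 and sham levels of 14.40, 13.77 and 14.16 on days 1, 3 and 14. Where the choice of sham channel changes a call of a gene named below, the ratio of the day 7 injured channel to the averaged sham, the mean of the 4 sham channels, is given beside it.

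Sarcomere genes of embryonic muscle were far above sham on day 7. Of 5 measured genes of the embryonic sarcomere 4 were higher and none lower, with a median of 1.88. Myh3, the myosin heavy chain of embryonic fibres, had a level of 15.64 in injured and 10.57 in sham muscle. Its injured spot was saturated, so it was at least 33.8-fold higher. The probe lies at chr10:53800570-53800629 in the rn4 build, and another probe of the gene gave 4.17. Tnnt2, the cardiac troponin T that immature skeletal fibres also make, had levels of 12.11 and 9.25 (7.24-fold higher). Actc1, the cardiac actin of immature fibres, had levels of 15.33 and 13.46 (3.67-fold higher). Mybph, a myosin-binding protein, was at 1.34, and nonmuscle myosin Myh10 was within 2-fold at 0.40. All 5 were below sham on day 1, and all but Tnnt2 on day 3. Their median was -2.71 on day 1 and -0.28 on day 3, and it was 0.82 on day 14.

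Of 10 genes of the cytoskeleton and of fibre repair 3 were higher and none lower. They were Ankrd1, a stretch-responsive nuclear and sarcomeric protein (1.73), the LIM protein Csrp2 (1.41), and the actin-binding peptide Tmsb10 (1.06, 0.97 against the averaged sham and -0.23 by the deposited ratio). Desmin, Des, was at -0.37 and vimentin, Vim, at 0.42. Among 4 surface proteins only the laminin receptor Itga7 passed 2-fold, with levels of 13.80 in injured and 14.80 in sham muscle (-0.87 against the averaged sham and -0.05 under median centring).

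Myogenic regulators lay nearer sham than the embryonic sarcomere. None of the 12 transcription factors was lower and 1 was higher, Myod1 at 1.01, which was -0.53 against the averaged sham. Myog, the factor of differentiating myoblasts, had levels of 12.82 in injured and 12.84 in sham muscle, closer than the spot noise. Its ratio was -3.74 on day 1, -1.45 on day 3 and -1.22 on day 14, so day 7 lay highest of the 4 arrays. Myf5 (0.76), Mef2a (0.72) and Myf6 (0.57) were within 2-fold. Of 11 genes of fusion and commitment 2 were higher. Mymk, the membrane protein myomaker that lets myoblasts fuse, had levels of 10.16 and 7.46 (6.5-fold higher), against ratios of -0.45, 0.20 and 0.83 on days 1, 3 and 14. Cdkn1c, the cell cycle inhibitor p57 of committed myoblasts, was 4.31-fold higher, and Cdkn1a, the related inhibitor p21, was at 0.94 (1.17 against the averaged sham).

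Slow fibre genes were lower, and they split by kind. Of 19 measured genes 12 were lower and none higher, with a median of -1.36, or -0.56 under median centring. All 3 myosin heavy chains and 2 of 3 light chains were lower. Myh7, the slow myosin heavy chain, had levels of 12.60 in injured and 16.59 in sham muscle (15.9-fold lower), and the slow light chain Myl3 had levels of 10.01 and 14.14 (17.5-fold lower). The other lower light chain, Myl2, was 14.6-fold lower. The probe named for Myh6, the cardiac heavy chain, was at -3.81. It shares a run of 27 of its 60 bases with the probe of Myh7, whereas no other pair of myosin heavy chain probes shared more than 9, so signal of these paralogs cannot be assigned with certainty. The slow troponins Tnnc1 (9.13-fold), Tnnt1 (8.74-fold) and Tnni1 (2.82-fold, -0.56 under median centring) were lower too. Tpm3, slow tropomyosin, was at -0.26 by its brightest probe and at -4.16 by another.

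Of 9 other slow fibre proteins 4 were lower and none higher, with a median of -0.66. Ankrd2, a stretch-responsive protein, was 12.4-fold lower, and the small heat shock protein Cryab, saturated in sham, at least 4.3-fold lower. Fhl1, a LIM protein, and the Z-disc protein Myoz2 were at -1.17 and -1.13, and under median centring at -0.18 and -0.36 (Myoz2 -0.98 against the averaged sham). The remaining 5 were within 2-fold. Csrp3, the muscle LIM protein, had levels of 14.51 and 14.57, and slow myosin-binding protein C, Mybpc1, 13.05 and 13.11. On day 3 the same genes had been at -5.37 and -4.21. The Z-disc protein Myot was at -0.04 and the calcium store protein Casq2 at 0.84 (1.26 against the averaged sham).

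Of 16 adult fast fibre genes 1 was higher and 2 lower, with a median of -0.02 after -3.03 on day 1 and -4.14 on day 3. Tnnc2, Tnni2, Ckm, Tpm1 and Myl11 had saturated injured spots on day 7, so their ratios and the day 7 median are minima. The fast 2A myosin Myh2 had levels of 12.81 in injured and 12.24 in sham muscle, and the fast 2B myosin Myh4 13.62 and 14.40 (ratio -0.78, -1.24 against the averaged sham). Fast troponin T, Tnnt3, was at 1.10 (0.47 against the averaged sham). Pvalb, the calcium buffer of the fastest fibres, did not follow: its levels were 10.58 and 13.96 (10.4-fold lower), and it was at 2.37 on day 14. Mybpc2, the fast myosin-binding protein C, was at -2.25. By contrast Sln, sarcolipin, a small inhibitor of the calcium pump, was 5.27-fold higher by its brightest probe (1.30 by another), and the histidine-rich calcium-binding protein Hrc, its injured spot saturated, was at least 2.58-fold higher. The voltage-gated sodium channel subunit Scn4b was 9.17-fold lower.

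**Figure D2:**
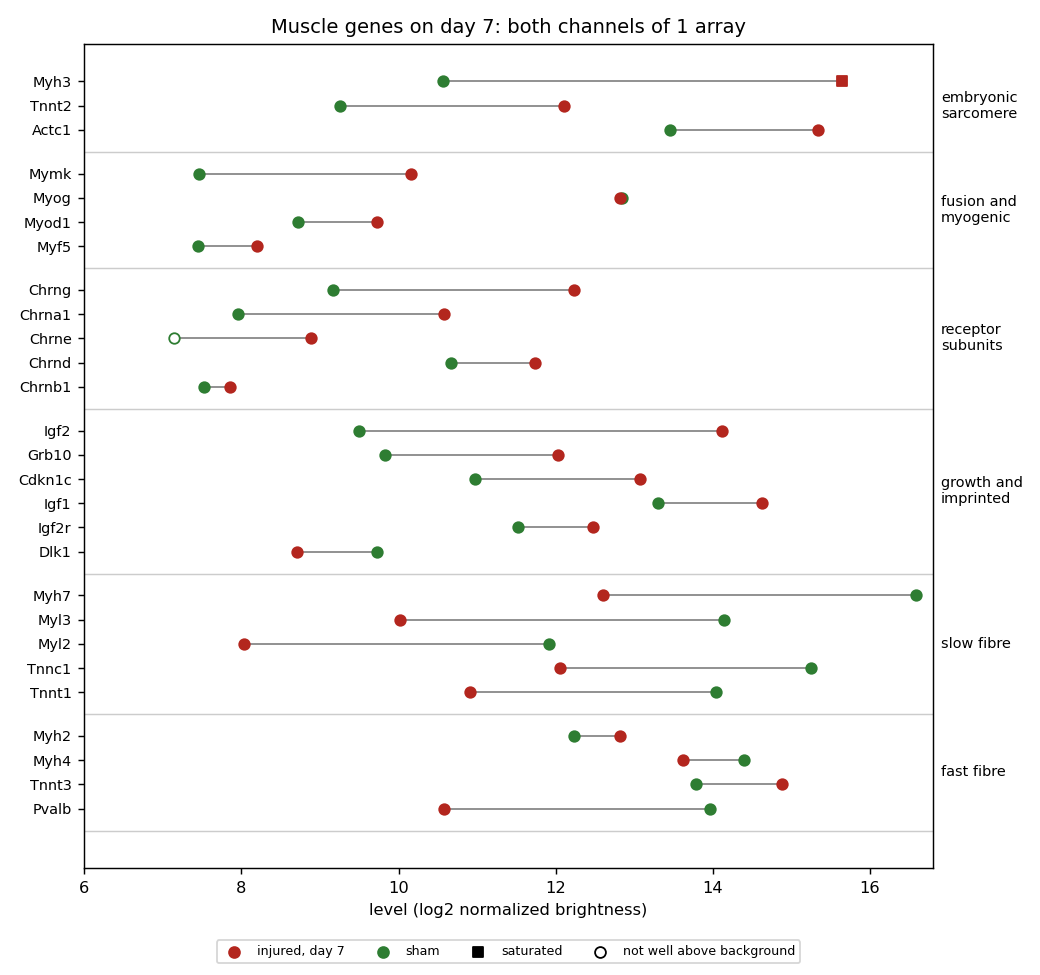
Levels of 27 muscle genes in the injured (red) and sham (green) channel of the day 7 array, in log2 normalized brightness, grouped by role, with saturated spots as squares and spots not well above background as open circles. Embryonic genes, receptor subunits and growth genes other than Dlk1 lie to the right in injured muscle. Slow fibre genes and Dlk1 lie to the left, and the channels of Myog coincide.

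Subunits of the muscle acetylcholine receptor were higher in unequal measure. The adult receptor holds alpha, beta, delta and epsilon subunits, and fetal or denervated muscle carries gamma in place of epsilon. Of the 5 genes 4 were higher and none lower, with a median of 1.75. Gamma, Chrng, had levels of 12.24 in injured and 9.17 in sham muscle (8.41-fold higher). Alpha, Chrna1, had levels of 10.58 and 7.96 (6.13-fold higher). Epsilon, Chrne, was at least 3.36-fold higher, its sham spot being dim, so the fetal and the adult subunit both lay above sham. Delta, Chrnd, was at 1.07 and beta, Chrnb1, at 0.32. All 5 had been below sham on days 1 and 3, Chrnd at -3.04 on day 3.

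Chrng and Chrna1 are well-known targets of myogenic factors, which bind short motifs called E-boxes. The sequences below are the 150 bases before the start of each gene in the RefSeq annotation of the GRCr8 build, read 5′ to 3′ on the gene's own strand, with the letters CAGCTG, 1 form of the E-box, in capitals. They are shown because these subunits were the highest of their family and were higher together. The Chrng window is chr9:95325834-95325983 on the plus strand and the Chrna1 window chr3:78877354-78877503 on the minus strand.
Chrng: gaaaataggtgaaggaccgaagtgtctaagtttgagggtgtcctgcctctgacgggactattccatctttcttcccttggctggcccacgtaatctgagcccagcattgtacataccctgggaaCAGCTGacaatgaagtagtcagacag
Chrna1: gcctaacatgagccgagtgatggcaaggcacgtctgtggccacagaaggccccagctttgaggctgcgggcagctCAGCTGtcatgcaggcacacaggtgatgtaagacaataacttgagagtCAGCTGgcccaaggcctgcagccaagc
Of the 5 subunit promoters 4 held CAGCTG, which reads the same on both strands, within the 250 bases before the start, Chrnb1 among them and Chrnd not. The letters occur in 11.9% of the 27457 promoters of the table, in 12.3% of those of measured genes and in 13.3% of those of genes at least 2-fold higher on day 7. In the table the share among higher genes thus lay close to that of all promoters. A match is a description of letters and shows neither a binding site nor a cause.

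Of the 11 measured genes of endplate assembly 2 were higher and 1 lower. Agrn, agrin, which clusters the receptor, was 3.18-fold higher, and the regulatory kinase subunit Prkar1a was at 1.18. The receptor's kinase Musk (0.03) and its anchor Rapsn (0.22) were within 2-fold in spots that were dim in sham, and the neuregulin gene Nrg1 was the lower one at -1.09 (-0.96 against the averaged sham and -0.83 under median centring). Among 10 genes known to respond to loss of the nerve 2 were higher, Gdnf, which supports motor neurons (6.88-fold, -0.62 on day 14), and Gadd45a, a stress protein of denervated muscle (2.25-fold, -2.34 on day 3 and -0.78 on day 14). The transcriptional regulators Hdac4 and Runx1 were at -0.20 and -0.09.

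The insulin-like growth factors and imprinted growth genes were higher in many members. Of 22 genes 9 were higher and 1 lower, with a median of 0.72. Igf2, the fetal growth factor, had levels of 14.11 in injured and 9.50 in sham muscle (24.5-fold higher) and a ratio of -0.77 on day 3. Igf1, which supports fibre growth, had levels of 14.63 and 13.30 (2.5-fold higher), although another probe gave 0.13. The binding proteins Igfbp5 (1.81), Igfbp4 (1.70), Igfbp6 (1.34) and Igfbp3 (1.14) were higher, the receptor Igf1r was at -0.18 and the clearance receptor Igf2r at 0.96. Of the imprinted genes Grb10, an adaptor that dampens insulin signalling, was at 2.20 by its brightest probe and 0.38 by another. Sgce was at 1.16, and Dlk1, the paternally expressed inhibitor of adipogenesis, was the lower one at -1.01 (-0.95 against the averaged sham and -0.35 under median centring).

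Interferon-induced genes formed the list with the most members past 2-fold. Of 55 measured genes 33 were higher and none lower, against 3.9% higher over all genes with a symbol, and the median was 1.22. It had been 0.31 on day 1 and -0.17 on day 3, and was 0.79 on day 14. Among the ubiquitin-like modifiers and their enzymes 7 of 9 were higher. Isg15, the ubiquitin-like protein itself, had levels of 15.13 in injured and 11.45 in sham muscle (12.8-fold higher). Its activating enzyme Uba7 was 7.21-fold and its protease Usp18 5.59-fold higher. The ligase Herc6, dim in sham, was at least 3.36-fold higher.

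Of 19 antiviral effectors 12 were higher. The highest were Ifit2, an RNA-binding protein (10.7-fold by its brightest probe and 0.99 by another), viperin, Rsad2 (8.02-fold, 0.90 by another probe), the GTPase Mx1 (7.46-fold) and the RNA-sensing synthetase Oas1a (7.45-fold). Oas1a had levels of 13.57 and 10.68, and Mx1 of 10.55 and 7.65. Ifit1 was at 1.09 after 2.31 on day 1 and -1.69 on day 3. The membrane proteins Ifitm3 (0.83), Ifitm2 (0.82) and Ifitm1 (0.64) and the RNA editor Adar (0.19) were within 2-fold.

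Of 11 sensors and signalling genes 5 were higher. Irf7, the factor that amplifies interferon transcription, had levels of 14.31 and 11.19 (8.66-fold higher), and the nucleic acid sensor Zbp1 was 5.03-fold higher. The transcription factors Stat2 (0.42) and Irf9 (0.45) were within 2-fold. Among the other 16 induced genes 9 were higher, led by Ifi27l2b at 3.59 with a second probe at 0.02, Rtp4 (8.58-fold), Ifi44 (7.65-fold) and the guanylate-binding protein Gbp2 (6.68-fold). The interferon gamma gene Ifng itself was at 0.16, with a sham spot not well above background and an injured level of 6.27, close to 6.05, the lowest level among its probes well above background.

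Many interferon-induced genes carry the interferon-stimulated response element, whose core can be written as GAAA, any 2 bases and GAAA again. The windows below are again the 150 bases before the RefSeq start in GRCr8, with the match to these letters in capitals, on the gene's strand or, where it reads TTTC, 2 bases and TTTC, on the other. Both strands were searched. They are shown for 4 of the highest members whose window holds a match. Irf7 is chr1:205800024-205800173 on the minus strand, Ifi44 chr2:243303841-243303990 on the minus strand, Oas1a chr12:41330316-41330465 on the plus strand and Gbp2 chr2:234005577-234005726 on the plus strand.
Irf7: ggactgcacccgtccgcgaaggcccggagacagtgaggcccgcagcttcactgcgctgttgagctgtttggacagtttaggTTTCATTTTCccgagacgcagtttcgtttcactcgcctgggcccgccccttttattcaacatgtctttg
Ifi44: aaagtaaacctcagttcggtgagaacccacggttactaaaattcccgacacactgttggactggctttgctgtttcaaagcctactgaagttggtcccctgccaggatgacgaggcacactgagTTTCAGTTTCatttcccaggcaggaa
Oas1a: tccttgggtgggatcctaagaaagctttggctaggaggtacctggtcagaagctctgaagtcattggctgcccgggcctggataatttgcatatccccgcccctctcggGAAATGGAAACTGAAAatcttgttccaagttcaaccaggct
Gbp2: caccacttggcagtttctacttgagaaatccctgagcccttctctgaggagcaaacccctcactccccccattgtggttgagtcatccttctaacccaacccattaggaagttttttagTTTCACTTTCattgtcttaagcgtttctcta
The first base of the match lay 69 bases before the start in Irf7, 26 in Ifi44 and 31 in Gbp2, and Oas1a held 2 overlapping matches at 41 and 35. Of the 33 interferon genes that were higher 23 had a promoter in the table, and 15 of these (65.2%) held the motif within 250 bases, as did 9 of 20 list members within 2-fold (45.0%). Of all 27457 promoters 3.29% held it, and of those of measured genes 3.11%. Over the whole array it was in 38 of 345 promoters (11.0%) of genes at least 2-fold higher and in 1 of 139 (0.719%) of genes at least 2-fold lower. The higher genes include the interferon list, so this share is no separate evidence on them, and no match shows that a factor bound.

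Genes of class I antigen presentation, which shows cytosolic peptides to T cells, were higher in 10 of 21 cases and lower in none, with a median of 0.95. Of 7 heavy chains and regulators 5 were higher, among them RT1-S3 with levels of 13.86 and 11.41 (5.48-fold) and RT1-CE5 (4.32-fold by its brightest probe, 0.71 by another). RT1 genes are near-identical copies, so a probe may read several of them. The light chain B2m, saturated in the injured channel, was at least 2.38-fold higher, the peptide pumps Tap1 and Tap2 were at 1.28 and 1.29, and the immunoproteasome subunit Psmb9 was 3.65-fold higher. The general chaperones Canx (-0.33) and Calr (0.28) of the same pathway were within 2-fold.

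Of 11 class II genes, which serve macrophages, dendritic and B cells, 6 were higher and none lower, with a median of 1.16. The invariant chain Cd74 had levels of 12.23 and 10.54 (3.23-fold higher) and the chain RT1-Da 12.55 and 10.87 (3.21-fold higher). RT1-Bb was at 2.46 on day 7 but at -3.21 on day 1 and -3.23 on day 14, with another probe at 0.51 on day 7. Its sham level was 9.81 on day 7 and between 10.15 and 10.38 on days 14 and 3. The processing protease Ctss was at 1.39 and at -0.04 against the averaged sham.

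Chemokine ligands lay on both sides of sham. Of 11 CXC ligands 5 were higher and 4 lower. The higher ones were the ligands of the chemokine receptor Cxcr3 of T cells, namely Cxcl10 with levels of 13.37 and 8.49 (29.4-fold), Cxcl11 (at least 6.12-fold) and Cxcl9 (at least 4-fold), both dim in sham, with Cxcl13, which attracts B cells (21.2-fold), and the stromal Cxcl12 (1.62). The lower ones included Cxcl1 (-1.47) and Cxcl3 (-1.17), which attract neutrophils, and each would be within 2-fold with median centring (-0.97 and -0.75). Of 18 other ligands 5 were higher, led by the T cell attractant Ccl5 (at least 7.11-fold) and the monocyte attractant Ccl12 (3.01-fold), and Ccl2, another monocyte attractant, was lower (-1.04, -0.71 against the averaged sham and -0.15 under median centring). Of 18 receptors none was higher and Ccr1, a receptor of monocytes, was lower (-1.47, -0.80 under median centring), while Cxcr3 was at 0.94 (1.20 against the averaged sham). None of 27 cytokine and cytokine receptor genes passed 2-fold in either direction, Il1b at 0.11 and Il6 and Tnf at -0.08 and 0.00 in spots dim in sham.

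Among 33 lymphocyte genes 11 were higher and 1 lower. Of 10 cytotoxic genes 7 were higher, with a median of 1.26: the granzymes Gzmm (4.74-fold), Gzmb (3.45-fold by its brightest probe, 0.02 by another), Gzma (at least 3.53-fold) and Gzmk (at least 2.5-fold), the receptor Klrd1 (at least 3.09-fold), the granule protein Nkg7 (2.29-fold) and perforin, Prf1 (at least 2.06-fold). Genes of the T cell receptor complex and its signalling were higher in 4 of 17 cases and lower in 1 (median 0.29). The T cell receptor chains Cd3g and Cd3d had levels of 10.99 against 8.10 and 11.10 against 9.11, both higher. The chain Cd247 (0.11) and the T cell surface proteins Cd2 (0.23) and Cd5 (0.50) were within 2-fold in spots dim in sham. Cd8a, which marks cytotoxic T cells and some rat macrophages, was the lower one at -1.57 (-0.87 under median centring), and none of 6 B and plasma cell genes passed 2-fold. Neutrophil granule genes (0 of 14 higher, 2 lower) and mast cell genes (0 of 8 higher, 2 lower) lay at medians of -0.32 and -0.20.

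Complement genes were higher in many members of the early pathways. Of 13 genes of the classical and lectin pathway 8 were higher and none lower, with a median of 1.67. The 3 chains of C1q, the recognition unit, were at 3.55 (C1qa), 2.61 (C1qb) and 2.39 (C1qc), with levels of 14.69 and 12.08 for C1qb. The proteases C1s (2.09) and C1r (1.57) and the components C2 (2.50) and C4a (2.83) were higher, as was the ficolin Fcna of the lectin arm (1.67). The lectin Mbl1 (0.09) and its proteases Masp1 and Masp2 (both -0.09) were within 2-fold in spots dim in sham. In the alternative arm factor D, Cfd (5.25-fold), factor B, Cfb (4.24-fold), and C3 (3.49-fold) were higher. Of 4 terminal components C6 alone passed 2-fold (6.04-fold), with C5 at 0.19 and C9, dim in sham, at 0.31.

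Regulators of complement were mixed, with 3 higher and 2 lower of 11. Serping1, the inhibitor of C1r and C1s, had levels of 13.86 and 11.69 (4.52-fold higher). Factor I, Cfi, which inactivates C3b, was 2.58-fold lower, and clusterin, Clu, was at -1.18 (-0.93 against the averaged sham and -0.36 under median centring). The anaphylatoxin receptors C3ar1 (0.12) and C5ar1 (-0.69, -1.39 against the averaged sham) were within 2-fold.

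**Figure D3:**
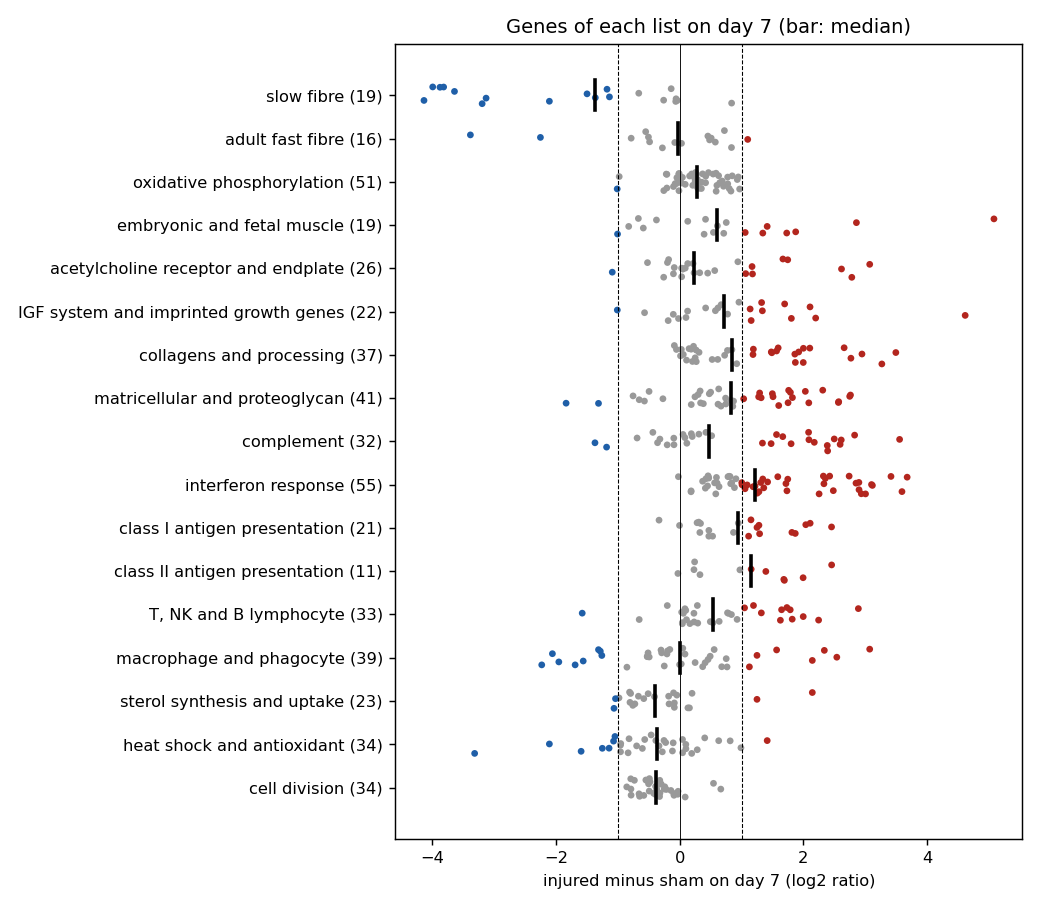
Log2 ratio of injured to sham muscle on day 7 for the measured genes of 17 lists (points, red at least 2-fold higher and blue at least 2-fold lower, spread vertically at random) with the median of each list as a bar and the number of genes in brackets. No interferon gene lies below the lower dashed line, slow fibre genes extend to -4.13, and macrophage genes lie on both sides of a median of 0.00.

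Macrophage genes lay on both sides of sham, most of them within 2-fold of it. Of 39 genes 7 were higher and 8 lower, and the median was 0.00, or 0.60 under median centring. Higher were Fcgr3a, the low-affinity activating Fc receptor, with levels of 12.31 and 9.24 (8.41-fold), Adgre1, the macrophage surface protein F4/80 (2.96-fold), the lysosomal protein Cd68 (1.13, 0.77 against the averaged sham) and the protease cathepsin K, Ctsk (5.06-fold). The lower ones included Cd163, the hemoglobin scavenger, with levels of 7.69 and 9.64 (3.87-fold), and the mannose receptor Mrc1 (3.22-fold). The hyaluronan receptor Lyve1 (4.16-fold lower), which also marks lymph vessels, and the scavenger receptor Msr1 (2.43-fold lower) were among them too. Other receptors of the list were within 2-fold, such as Folr2 (0.03), Cd36 (0.25) and Clec10a (-0.19, -1.37 against the averaged sham). So were the general macrophage genes Aif1 (0.46) and Tyrobp (-0.52). The inhibitory Fc receptor Fcgr2b, with levels of 10.90 and 12.46, was 2.94-fold lower. The lysosomal protease Ctsl had levels of 12.86 and 15.08 (4.68-fold lower) and osteopontin, Spp1, 13.41 and 14.72 (2.48-fold lower). Under median centring Mrc1 was at -0.96, Msr1 at -0.64, Fcgr2b at -0.75 and Spp1 at -0.37, all within 2-fold, whereas Cd163 (-1.34), Lyve1 (-1.47) and Ctsl (-1.29) still passed.

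Genes that carry lipid out of cells were higher where named here. Abcg1 and Abca1, the pumps that move cholesterol out of the cell, were 4.42-fold and 2.38-fold higher. Apoe, the apolipoprotein that accepts the exported cholesterol, had levels of 15.36 and 12.82 (ratio 2.54, 1.61 against the averaged sham), and the phospholipid transfer protein Pltp was 5.72-fold higher. Apoc1, a second apolipoprotein, was at 1.68. Pltp and Apoc1 were picked after their values were seen.

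Of 21 genes of fatty acid and triglyceride synthesis 3 were higher and 1 lower. Scd, which puts the double bond into saturated fatty acids, had levels of 12.48 and 7.61 (29.4-fold higher) after 0.05 on day 1 and -0.02 on day 3. Srebf1, the factor that drives lipid synthesis, had levels of 12.73 and 9.81 (7.57-fold higher). The related desaturase Scd2 was at 1.46 by its brightest probe and 0.38 by another. Fatty acid synthase, Fasn, had levels of 8.73 and 8.71, acetyl-CoA carboxylase, Acaca, was at 0.29, and malic enzyme, Me1, was 3.27-fold lower (-0.88 under median centring), so Scd was far above sham while both chain-building enzymes were within 2-fold of it.

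The 23 genes of sterol synthesis and uptake had a median of -0.41, with 2 lower, and the 2 higher ones were the pumps Abcg1 and Abca1. Fdft1, squalene synthase, was at -1.06 and the desaturase Sc5d at -1.04 (-0.92 against the averaged sham), and under median centring they were at -0.79 and -0.68. Squalene epoxidase, Sqle, was at -0.98 and the synthase Hmgcs1 at -0.81, and against the averaged sham they were at -1.23 and -2.40. The list median was 0.47 on day 3, and on day 7 it was 0.10 under median centring. Fat cell proteins were higher in 1 of 18 cases and lower in 2. Adiponectin, Adipoq (0.02), and perilipin, Plin1 (0.08), were dim in sham and near it in injured muscle, while Fabp4, shared by fat cells, macrophages and capillaries, was 3-fold higher. The lower ones were Fabp5 (-1.11) and Cidea (-1.02). Against the averaged sham they were at -0.97 and -0.73, and under median centring at -0.15 and -0.36.

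**Figure D4:**
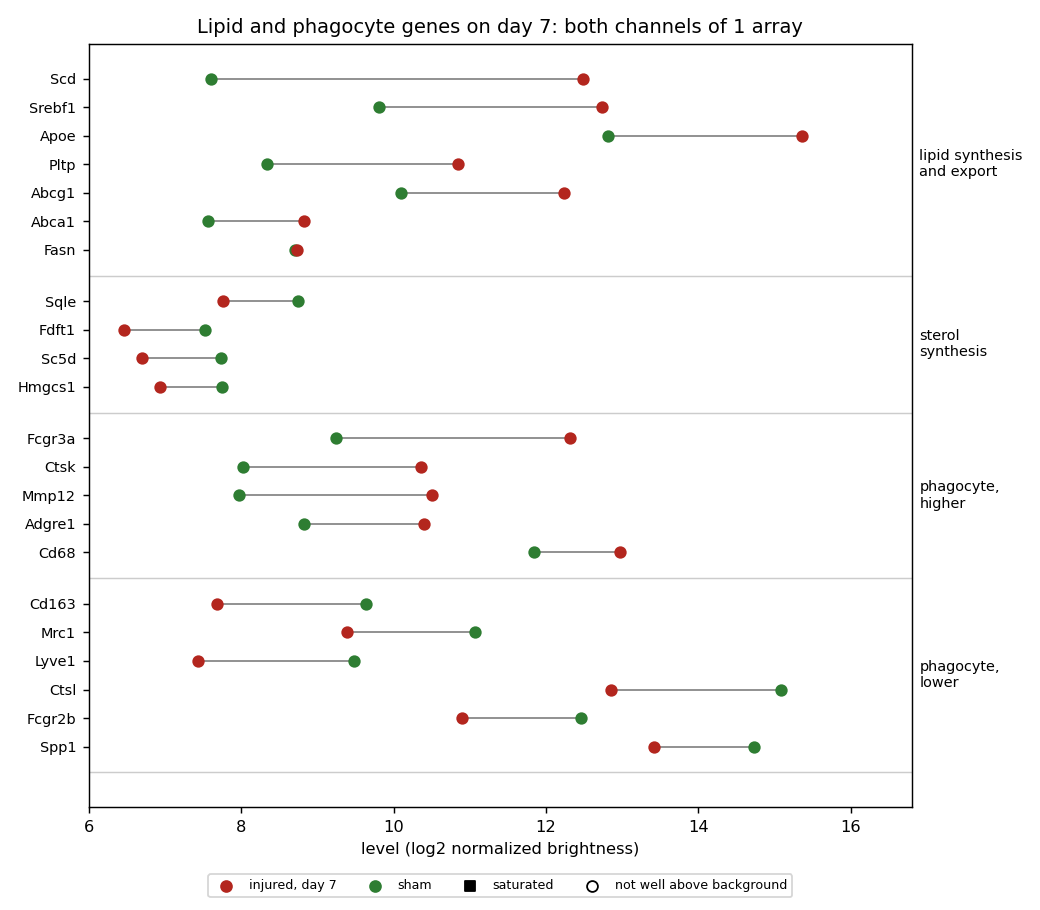
Levels of 22 lipid and phagocyte genes in the injured (red) and sham (green) channel of the day 7 array, in log2 normalized brightness. Scd lies at 12.48 in injured and 7.61 in sham muscle while both channels of Fasn coincide near 8.73, and the injured values of Fcgr3a and Cd163 lie on opposite sides of sham.

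Collagens and their enzymes were higher in many members. Of 37 collagen genes and their processing enzymes 17 were higher and none lower, with a median of 0.84. Of 8 fibrillar collagens 6 were higher (median 1.93). Col1a1 (at least 9.63-fold) and Col3a1 (at least 6.31-fold) had saturated injured spots, and Col1a2 had levels of 14.47 and 11.70 (6.81-fold higher). Col5a1, Col5a2 and Col5a3, which set fibril width, were at 1.86, 2.00 and 1.59. The enhancer of procollagen cleavage Pcolce (4.3-fold) and the cross-linking enzymes Loxl1 (3.79-fold) and Loxl2 (3.99-fold) were higher with them. Of 8 fibril-associated and microfibrillar collagens 3 were higher (median 0.27). Among them were Col16a1, with levels of 13.58 and 10.09 (11.3-fold, 1.81 on the log2 scale by another probe), and Col6a1, a chain of microfibrillar collagen (7.71-fold). Among basement membrane collagens Col18a1 (1.87) and Col15a1 (1.19, 0.97 against the averaged sham) passed 2-fold.

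Of 41 matricellular and proteoglycan genes 18 were higher and 2 lower. Lum, lumican (6.72-fold), Aspn, asporin (5.94-fold), and Bgn, biglycan (4.97-fold), small leucine-rich proteoglycans that bind collagen, were higher, whereas decorin, Dcn, of the same family had levels of 13.86 and 13.48. Cilp, a matrix inhibitor of growth factor signalling, was at 2.76 after -2.92 on day 1 and -1.37 on day 3. Postn, periostin, was 5.92-fold and Sparc 4.09-fold higher. The lubricating proteoglycan Prg4 was 3.57-fold lower.

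Matrix proteases went both ways, 5 higher and 3 lower. Mmp14, a membrane-bound collagenase, had levels of 13.50 and 10.49 (8.02-fold higher) and Mmp2, the gelatinase it activates, 13.17 and 10.42 (6.74-fold higher). The macrophage elastase Mmp12 was 5.74-fold higher. The stromelysins Mmp3 and Mmp10 were lower, Mmp10 at -3.01 with an injured level of 6.14 near the lowest level of that channel. Their inhibitor Timp1 had levels of 13.03 and 14.31 (2.42-fold lower, -0.35 under median centring), and Timp2 was at 0.91. Of 4 basement membrane genes past 2-fold the highest was the integrin Itga1 (1.26). Genes of endothelium and vessel growth were higher in 3 of 29 cases and lower in 1, the latter by at least 4-fold. Vcam1, an adhesion molecule (4.3-fold), and Kdr, the main receptor of vascular endothelial growth factor (3.3-fold), were higher. Pecam1, Cdh5 and Vwf, which define endothelium, were at 0.36, 0.54 and 0.25.

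Stress genes were mostly at or below sham. Of 34 heat shock and antioxidant genes 1 was higher and 7 lower (median -0.36, 0.41 under median centring). Lower were Akr1b8, a reductase of reactive aldehydes, with levels of 10.50 and 13.82 (9.93-fold), and metallothionein Mt1 (3.01-fold by its brightest probe, 0.13 by another). Thioredoxin reductase Txnrd1 (2.38-fold by its brightest probe, -0.05 by another) and the quinone reductase Nqo1 (2.2-fold) were lower too. Under median centring Mt1, Txnrd1 and Nqo1 were at -0.70, -0.61 and -0.72. The secreted dismutase Sod3 was the higher one (2.67-fold), and heme oxygenase Hmox1 was at -0.82. Of 24 genes of muscle wasting and autophagy none was higher and 3 were lower, among them the ubiquitin ligase Trim63 (3.31-fold) and the autophagy adaptor Sqstm1 (3-fold by its brightest probe, 0.18 by another and -0.81 under median centring).

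Energy metabolism lay close to sham after the loess step. None of 24 genes of the tricarboxylic acid cycle and 1 of 51 on the oxidative phosphorylation list passed 2-fold. The latter was myoglobin, Mb, at -1.01 (-0.01 under median centring), which stores oxygen and is not itself a subunit of the respiratory complexes. The list medians were 0.15 and 0.28. Under median centring they were 0.95 and 1.16, so for oxidative phosphorylation the closeness to sham depends on the loess step. Of 32 glycolysis and glycogen genes 2 were higher and 1 lower. Pfkm, muscle phosphofructokinase, was at 1.05 (0.89 against the averaged sham), and Ppp1r1a, the inhibitor of protein phosphatase 1, was 15-fold lower with levels of 9.94 and 13.85. Fatty acid oxidation had 2 of 29 genes lower, Acadm (-1.09, -0.82 against the averaged sham) and Hadhb (-1.02), which were at -0.26 and -0.39 under median centring. None of 34 cell division genes passed 2-fold (median -0.38, after 1.00 on day 3), with Mki67 at -0.49 and Top2a at -0.78 (-1.11 against the averaged sham). Red cell and platelet genes went both ways. Hbb-b1, a beta globin saturated in the injured channel, was at least 5.48-fold and Alas2, the heme enzyme of red cells, 3.75-fold higher. Hbb (4.24-fold) and Gp1bb (2.07-fold) were higher too, while Slc4a1 (0.52, dim in sham) and Gp9 (0.15) were within 2-fold. Pf4 was 2.005-fold lower (-0.95 against the averaged sham and -0.21 under median centring). How far blood in the muscle contributed to other genes was not tested. The epidermal keratins Krt5 and Krt14 were at 0.13 and 0.09.

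The title of the series asks about targets of miR-21, a microRNA that lowers its targets through a seed at bases 2 to 8. RefSeq gives the mature rat strand at chr10:71902653-71902674 (GRCr8, minus strand), printed here with the seed in capitals because the title turns on it.
rno-miR-21-5p: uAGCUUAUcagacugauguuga
Of 23 published targets that were measured 2 were higher and none lower on day 7, with a median of 0.21 beside 0.03 over all genes with a symbol. Higher were Daxx, a nuclear adaptor of cell death and transcription, with levels of 11.25 and 9.51 (3.36-fold), and the small GTPase Rhob, with levels of 10.10 and 8.37 (3.31-fold). The translation inhibitor Pdcd4 had levels of 7.30 and 7.74 (ratio -0.44), the growth factor signalling inhibitor Spry1 9.07 and 8.66 (0.40), the protease inhibitor Reck 8.29 and 8.08 (0.21) and Timp3 7.49 and 7.20 (0.30). The kinase Map2k3 was at -0.83.

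Several of the genes farthest from sham belong to none of the lists. Fbxl22, an F-box protein of the sarcomere, had levels of 11.30 and 7.79 (11.4-fold higher, 1.13 on day 14). Sfrp2, a secreted Wnt modulator, was 10.8-fold and Cthrc1, a secreted protein of collagen-making cells, 8.35-fold higher. Atp1b4, a muscle protein related to the sodium pump, was at least 9.56-fold higher, the peptide hormone gene Sct 9.54-fold, the ubiquitin-like Ubd 9.43-fold and the exonuclease Isg20, also induced by interferon, 8.31-fold. On the lower side Tuba8, an alpha tubulin of muscle, was 15.1-fold lower, Car3, carbonic anhydrase of slow fibres, 6.94-fold, Rrad, a small GTPase of the calcium channel, 6.42-fold and the uridine kinase Uck2 6.39-fold. Ppp1r27, a regulatory subunit of protein phosphatase 1, was 5.84-fold lower and Asb11, a ubiquitin ligase subunit, 5.68-fold lower. Nppb, the natriuretic peptide BNP, was at -2.52 by its brightest probe and -0.09 by another. Rab15, a GTPase of membrane traffic, had levels of 15.24 and 12.31 by its brightest probe (7.62-fold higher) while the other probe gave -0.07.

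Day 7 was the highest of the 3 later arrays for a distinct set of genes. Of 11226 genes with a symbol that were measured on days 3, 7 and 14, the ratio of day 7 was at least 2-fold above both neighbours in 62 genes and at least 2-fold below both in 14, and 51 and 7 of these were also at least 2-fold from sham. The 51 include Cxcl10, Isg15, Ifit2, Rsad2, Mx1, Mx2, Oas1a, Oasl2 and Usp18 of the interferon genes and Chrng, Chrna1, Chrnd, Mymk, Actc1, Igf2 and Cdkn1c of the muscle genes. Scd, Apoe and Pltp were among them, although the sham level of Apoe was 12.82 on day 7 against 13.83 and 13.97 on days 3 and 14, and its day 7 ratio of 1.61 against the averaged sham stands beside ratios of 1.42 and 1.07 on those days. Also among them were the class I genes RT1-A2 and RT1-CE16, the latter at 2.49 on day 7 against -0.07 on day 3 and 0.25 on day 14. The neuropeptide precursor Tac3 was at 2.49 against -0.13 and 1.12. Among the 7 below both were Dlk1 and the transporter Slc6a20a, at -1.80 on day 7 against 0.08 and 0.06. Its injured level was 6.41 and its sham level 8.21, while the other sham channels lay at 6.71 to 6.92 (ratio -0.75 against the averaged sham). From day 3 to day 7 the ratio rose at least 2-fold in 1080 of 22314 genes and fell in 497, and from day 7 to day 14 it rose in 396 of 21788 and fell in 270. These are sizes from single arrays, days 1, 3 and 7 having been scanned in 1 session and day 14 in another.

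**Figure D5:**
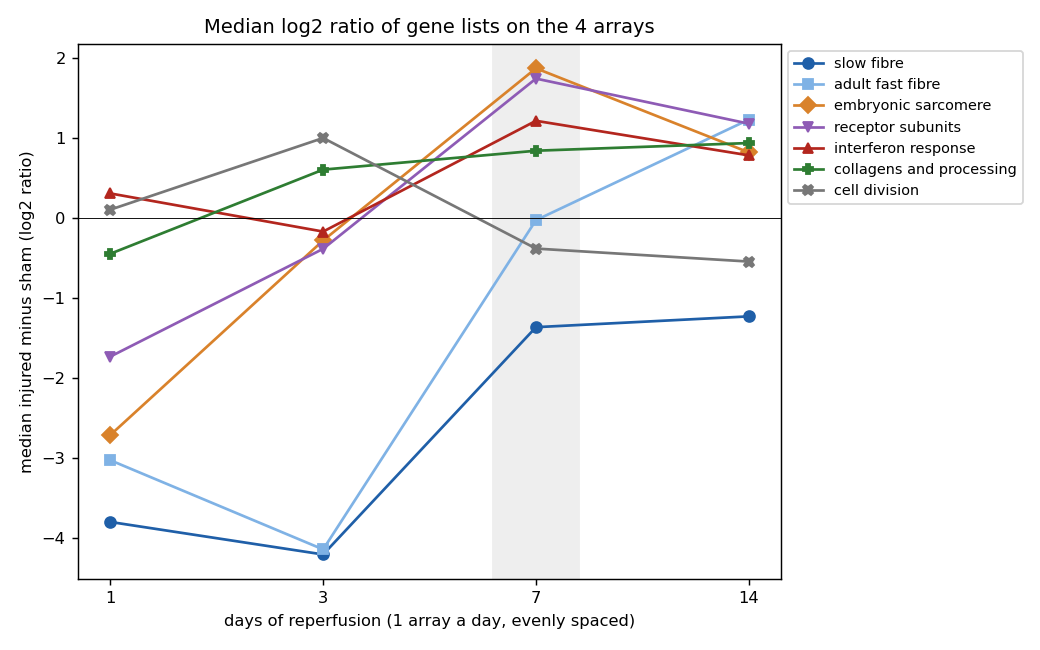
Median log2 ratio of injured to sham muscle for 7 gene lists or roles on the arrays of days 1, 3, 7 and 14 (1 array a day, days evenly spaced, day 7 shaded). On day 7 the embryonic sarcomere (1.88) and receptor subunits (1.75) lie highest and slow fibre genes (-1.36) lowest. The fast fibre median is -0.02, a minimum because some injured spots were saturated.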

How the data were processed

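Each array paired injured RNA (Cy5) with sham RNA (Cy3), 1 array a day. From 0.5 µg of total RNA, dye-labelled RNA was made by linear amplification, per the labels' protocols. The authors deposited spot intensities (mean and background signal of each channel, with flags for background and saturation), read by Agilent Feature Extraction 10.5.1.1 per the file headers and 9.5.3 per the submitters' processing notes. The deposited log10 ratios had been background-subtracted, spatially detrended and dye-normalized (linear and LOWESS), per the file headers. The log2 values of the deposited value table equal these log10 ratios on the log2 scale, within 0.005 at 40972 probes.

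From the intensities, background was corrected with normexp (offset 50) and each array was normalized by loess, control and outlier spots at weight 0 (limma 3.58.1 in R 4.3.3, tested on simulated data); single-channel levels were scaled between arrays by Aquantile. Python 3.11.15, pandas 2.3.3 and matplotlib 3.10.9 did the rest. A gene is its brightest probe, kept where well above background in at least 1 channel. Current symbols came from the RefSeq annotation of GRCr8, by accession for 11150 probes and by current or older symbol for 1599 and 445. A further 6494 probes were named by their symbol without a suffix such as _predicted, and 132 by a symbol in the description.

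The gene lists and their members were chosen with earlier results of these data known. All of the 20 genes with the highest and the 20 with the lowest ratio are named. Others were drawn from up to 8 list members each way past 2-fold, up to 4 nearest sham, small roles in full, and a set of 30 genes of interest, and the rest were chosen after their values were seen. A few list members are counted but not reported here. Alternatives changed the background, scaling, filter, probe summary and sham channel. Where 1 channel is a bound, the fold is set against the lowest level among probes well above background, 6.05 in the injured and 6.48 in the sham channel.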

Additional observations from a re-analysis of the deposited data

Results flagged for a closer look

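The following values lay on opposite sides of sham on 2 days, and the difference was not tested because each day has 1 array. The median of the 5 embryonic sarcomere genes was 1.88 on day 7 and -2.71 on day 1. The median of the 5 acetylcholine receptor subunits was 1.75 on day 7 and -1.73 on day 1. Embryonic myosin Myh3 was at 5.08 on day 7 and -3.08 on day 1, the receptor subunit Chrng at 3.07 and -2.73, and the collagen gene Col1a1 at 3.27 and -2.54. The calcium buffer Pvalb was at -3.38 on day 7 and at 2.37 on day 14.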

How the results depend on the processing

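No paired analysis was possible because each group has 1 sample, and for the same reason no replicate could be left out. Against 734 genes higher and 289 lower, the deposited ratio gave 4051 and 1890, normexp with an offset of 0 gave 1794 and 619, and median centring gave 2721 and 78, or 97.2% of calls higher against 71.7%. The median of all genes moved by 0.19 with the deposited ratio and by 0.23 with median centring. The averaged sham gave 853 and 708, or 54.6% higher. Single sham channels of other days, chosen as denominators after the data were seen, gave 1038 and 1277 (day 1, 44.8%), 865 and 980 (day 3, 46.9%) and 1097 and 934 (day 14, 54.0%). Of 224 named genes 214 passed 2-fold, and 147 passed under every alternative except single sham channels. Under median centring 40 were within 2-fold, all of them lower than sham, and 24 were with the averaged sham. The deposited ratio brought 14 within 2-fold and the median over probes 15. By the deposited ratio Mybph (0.79), RT1-A2 (0.87), Col15a1 (0.86) and Gp1bb (0.54) were within 2-fold. Of the 4 list medians past 2-fold, only that of the interferon genes passed under every alternative except single sham channels. Median centring also brought 10 of the 41 list medians past 2-fold that were within it before. Reversed ratios were those of Tmsb10 (-0.23, deposited), Myod1 (-0.53 with the averaged sham, -1.21, -0.79 and -1.14 with the shams of days 1, 3 and 14), Ctss (-0.039, -0.64, -0.59 and -0.31 likewise), Tnnt3 (-0.026 and -0.29, days 1 and 3) and the actin-binding protein Synpo2 (-0.49 and -0.56, days 1 and 3). The cause was not tested. Dim spots limit the sham side most, where 34.72% of probes were well above background.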

Other observations

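Of 17 Z-disc and giant protein genes 3 were higher and 1 lower, with a median of 0.04 after -3.31 on day 1 and -3.78 on day 3. The Z-disc protein Ldb3 had levels of 13.38 and 11.75 (ratio 1.63, 0.91 by another probe), the M-band protein Myom2 was at 1.28 (0.30 by another probe) and Synpo2 at 1.05 (0.43 against the averaged sham). In the dystrophin and membrane repair group only dysferlin, Dysf, passed 2-fold (-1.15, -0.45 under median centring).

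Of 21 immediate early genes 5 were higher and 1 lower. The transcription factors Nr4a1, Jun and Egr1 were at 1.43, 1.30 and 1.28 (0.92 against the averaged sham for Egr1), and Ier3 had levels of 9.58 and 11.52 (3.84-fold lower), with ratios of -1.37, -2.03 and -1.93 on days 1, 3 and 14. Of 14 smooth muscle and pericyte genes the growth factor receptor Pdgfrb was higher (1.87) and the proteoglycan Cspg4 lower (-1.10, -0.92 against the averaged sham and -0.35 under median centring). Of 17 Schwann cell and nerve genes the growth cone protein Gap43 was lower (-1.49, -0.96 under median centring). Of 25 TGF-beta family genes the procollagen protease Bmp1 was the highest (1.49), and of 16 endoplasmic reticulum stress genes Trib3 was higher (1.22) and Atf4 lower (-1.03, -0.21 under median centring). The growth factor midkine, Mdk, which was in no list and was picked after its values were seen, had levels of 11.64 and 9.36 on day 7 (4.85-fold higher).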
